A study of Mus musculus with 4 samples.

Results

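The nuclear factor I (NFI) family of transcription factors is encoded in the mouse by the 4 genes Nfia, Nfib, Nfic and Nfix. Every SOX3 ChIP peak that overlapped the body of 1 of these genes or the 200 kb on either side of it was collected and joined with the peaks of the other replicates that it overlapped, which gave 90 regions of 51271 in the whole data set. The series measured SOX3 binding in neural progenitor (NP) cells, obtained from R1 mouse embryonic stem cells by 4 days of monolayer culture in N2B27, a serum-free neuralising medium. SOX3-bound chromatin was immunoprecipitated from 3 biological replicates and sequenced, and the authors called the peaks of each replicate separately against DNA of the same cells to which no antibody had been applied. The cells all belong to this single condition, so values were compared between replicates, between the 4 genes and with the rest of the genome, without a test.

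NFI proteins bind DNA as dimers through a conserved amino-terminal domain and recognise a palindrome made of the word TTGGC and its reverse complement. NFIA and NFIB act in the switch of neural progenitors from neuron to glia production, NFIX is linked to the quiescence of neural stem cells, and NFIC is best known from tooth root formation. SOX3 belongs to the SOXB1 group, HMG-domain proteins that keep neural progenitors undifferentiated and often bind DNA beside POU factors.

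The lists held 18816 peaks in replicate 1, 8096 in replicate 2 and 40543 in replicate 3. Each peak has a score, 10 times the negative log10 of its MACS p-value, and 50 was the lowest score in each list. Scores rise with library depth, which is unknown here because the lists give no read counts, so each score was placed within its own list as a percentile, the share of the peaks of that list with a lower score. Replicates 2 and 3 resembled each other more closely than either resembled replicate 1. Of the overlapping pairs of peaks of replicates 2 and 3, 28.6% of 21 near the family and 34.5% of 7815 in all began at the same base, against 0% of 15 and 0.922% of 5637 for replicates 1 and 2 and 0% of 20 and 1.63% of 8269 for replicates 1 and 3. Near the family, peaks of replicates 2 and 3 began at the same base in 3 of the 6 regions found in these replicates alone and in 3 of the 15 found in all 3. How far these 2 lists are independent was not tested, and it bears on both groups of regions. No region near the family was in replicates 1 and 2 alone. Requiring only replicates 1 and 2 gave 15 regions, as many as requiring all 3, so the demand for replicate 3 removed none. Known neural SOX sites were present in each list, with scores of 953, 587 and 1027 (replicates 1, 2 and 3) at Nes, which encodes the intermediate filament nestin. The intronic site of Dbx1, a homeobox gene of neural progenitors, scored 59.0, 51.3 and 78.1, of which the replicate 2 score was close to the threshold.

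All positions are on mm9, counted from 1. Nfia lies at chr4:97439425-97868605 on the forward strand and Nfib at chr4:81936077-82351654 on the reverse strand of the same chromosome, 15.1 Mb apart, and their bodies span 429 and 416 kb. Nfic (chr10:80858931-80893750, reverse strand) and Nfix (chr8:87223775-87324243, reverse strand) are shorter, at 34.8 and 100 kb. The Nfib body is long because 1 annotated transcript starts 199971 bp upstream of all the others.

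The stretches of DNA that the peaks of all 3 replicates had in common are shown for the best-placed region of each gene and for the 3 intronic sites of Nfib, the member with the most regions in its own body. They are forward-strand sequences of the NCBIM37 reference (mm9), 5′ to 3′. Capitals mark the SOX core word (ACAAAA or ACAAAG or ACAATA or ACAATG, on either strand), the longer words in which A or G precedes ACAAA or ACAAT, and the POU octamer (ATGCAAAT or ATGCTAAT). The Nfix region is shown as the 300 bases of its common stretch that hold most of these words, as is the distal Nfib region, and of the region near Nfic, which lies in an untranslated exon of Hmg20b, 30 bases around a SOX word are shown.

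Nfia, intron 2, chr4:97507002-97507155: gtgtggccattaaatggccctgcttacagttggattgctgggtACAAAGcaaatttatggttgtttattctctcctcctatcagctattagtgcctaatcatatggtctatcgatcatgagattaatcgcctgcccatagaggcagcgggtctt

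Nfib, intron 2, chr4:82047455-82047708: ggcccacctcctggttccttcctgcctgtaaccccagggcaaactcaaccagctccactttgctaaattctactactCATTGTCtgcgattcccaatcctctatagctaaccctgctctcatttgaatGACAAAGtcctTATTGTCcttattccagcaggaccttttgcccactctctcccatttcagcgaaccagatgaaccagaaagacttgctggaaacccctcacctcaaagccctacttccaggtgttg

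Nfib, intron 2, chr4:82076885-82077005: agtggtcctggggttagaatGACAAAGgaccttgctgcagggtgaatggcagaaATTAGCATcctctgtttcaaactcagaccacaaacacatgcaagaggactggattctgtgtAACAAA

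Nfib, intron of the longest transcript, chr4:82268177-82268396: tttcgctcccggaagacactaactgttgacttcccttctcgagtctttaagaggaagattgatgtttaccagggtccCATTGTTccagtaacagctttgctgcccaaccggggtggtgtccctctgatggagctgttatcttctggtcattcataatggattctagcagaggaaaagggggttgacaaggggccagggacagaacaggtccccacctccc

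Nfib, upstream, chr4:82401896-82402195: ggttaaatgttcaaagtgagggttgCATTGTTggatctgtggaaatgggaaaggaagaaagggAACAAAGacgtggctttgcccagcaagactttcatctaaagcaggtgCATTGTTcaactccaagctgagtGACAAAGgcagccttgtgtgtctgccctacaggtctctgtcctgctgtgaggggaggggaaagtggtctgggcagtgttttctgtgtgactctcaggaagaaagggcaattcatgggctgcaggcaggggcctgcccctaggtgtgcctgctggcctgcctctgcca

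Nfic, downstream at Hmg20b, chr10:80812229-80812258: caggtcttgggGACAATGgaaaccagcgtc

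Nfix, upstream at Junb, chr8:87503736-87504035: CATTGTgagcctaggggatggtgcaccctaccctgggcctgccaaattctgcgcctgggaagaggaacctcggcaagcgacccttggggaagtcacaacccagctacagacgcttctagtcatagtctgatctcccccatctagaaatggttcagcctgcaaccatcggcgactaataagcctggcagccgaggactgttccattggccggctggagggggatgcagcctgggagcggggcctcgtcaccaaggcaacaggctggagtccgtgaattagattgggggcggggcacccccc

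SOX3 peaks were found near each of the 4 genes, but in very different numbers. In replicates 1, 2 and 3, Nfia had 2, 3 and 8 peaks and Nfib had 10, 5 and 14 peaks. Nfic had 11, 2 and 13 peaks and Nfix had 18, 12 and 33 peaks. Each gene had the most peaks in replicate 3, the longest list, and Nfix had the most of the 4 genes in each replicate. Merging gave 9 regions for Nfia, 18 for Nfib, 20 for Nfic and 43 for Nfix.

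Most of these regions were seen in 1 replicate. Of the 90, 65 had a peak in 1 list (21 in replicate 1, 1 in replicate 2 and 43 in replicate 3), 10 in 2 lists and 15 in all 3. Peaks found in no other list were also common in the whole data set. They were 10617 of 18816 in replicate 1, 196 of 8096 in replicate 2 and 30116 of 40543 in replicate 3. The 10 were 6 regions of replicates 2 and 3 and 4 of replicates 1 and 3. The 15 are 16.7% of the regions near the family, against 10.5% of the 51271 regions of the whole data set. They were 1 region of the 9 near Nfia (11.1%), 5 of the 18 near Nfib (27.8%), 2 of the 20 near Nfic (10%) and 7 of the 43 near Nfix (16.3%). Peaks of replicate 1 had a median score of 64.0 where they stood alone and 118 in the regions of all 3 replicates, and peaks of replicate 3 had medians of 60.3 and 145. Over the whole data set the corresponding medians were 62.8 and 174 in replicate 1 and 59.2 and 185 in replicate 3, so the replicated peaks near the family had lower median scores than replicated peaks in general in both lists.

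**Figure D1:**
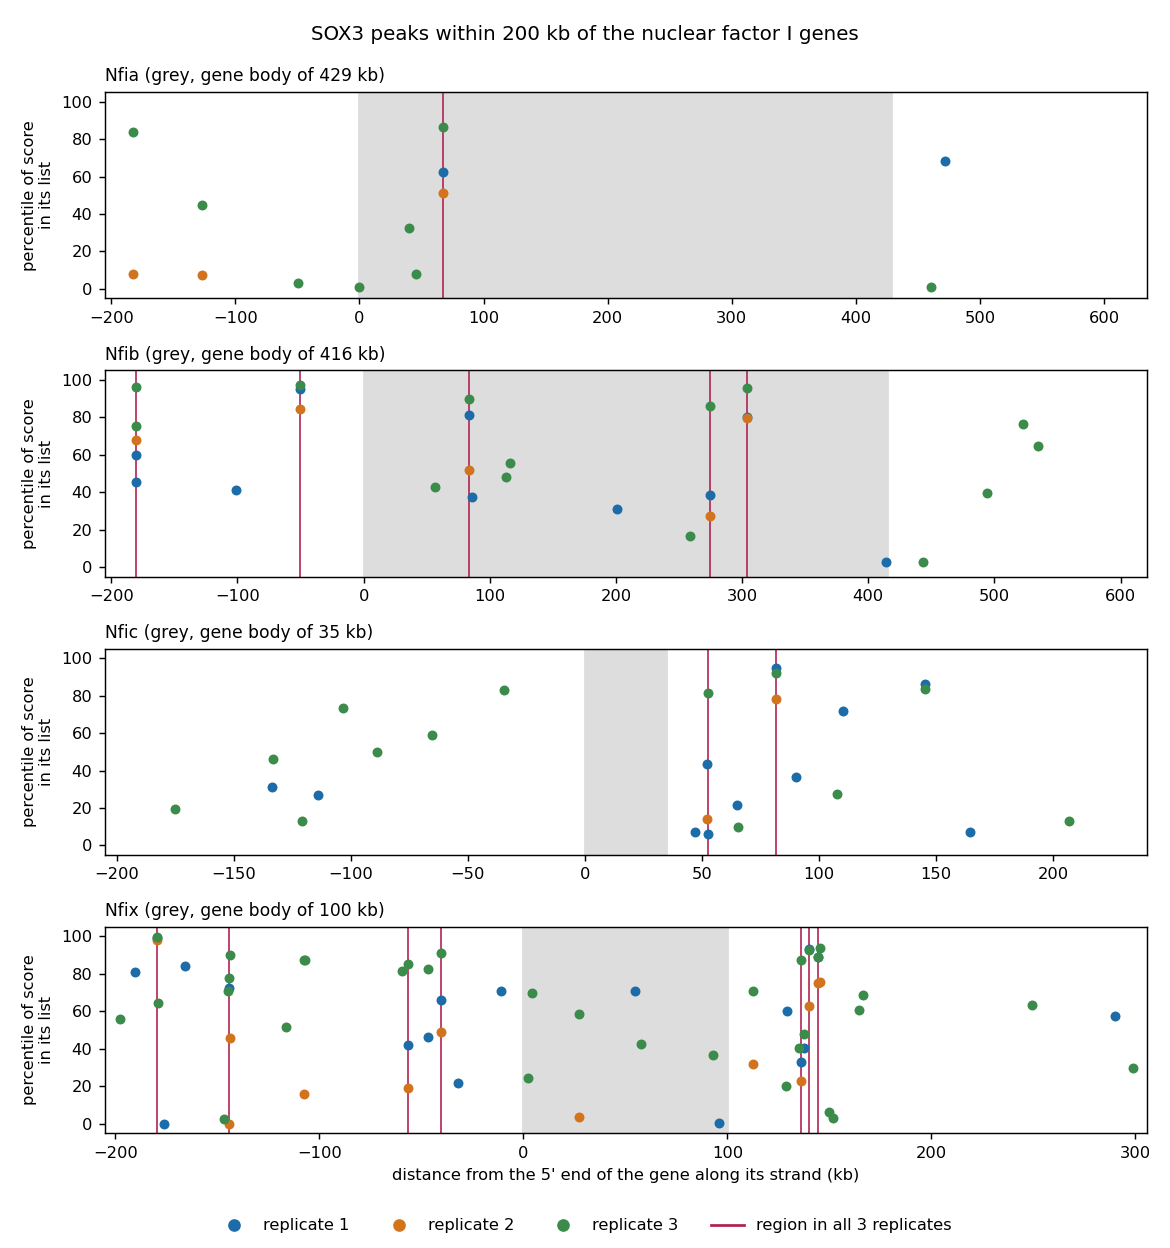
SOX3 peaks within 200 kb of Nfia, Nfib, Nfic and Nfix, 1 panel per gene. The horizontal axis is the distance from the 5′ end of the gene along its own strand (kb), the vertical axis the percentile of the peak's score within its list (%), points are peaks coloured by replicate, grey is the gene body and red lines are the 15 regions with a peak in all 3 replicates. Red lines cross the grey body for Nfia (1) and Nfib (3) and lie outside it for Nfic and Nfix.

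By position, 4 of the 15 regions were in an intron of a member and 11 were distal, outside the gene body. None lay in an exon or within 2000 bp of a transcript start of a member, where 4.79% of the 22367 protein-coding genes had such a region. In the gene body, Nfia and Nfib had regions in all 3 replicates and Nfic and Nfix had 0, and 8.83% of all protein-coding genes had 1 or more. Among the 528 genes with a body of at least 300 kb, the share was 51.9%, and 8.52% had 3 or more, as Nfib did. Nfia or Nfib was the gene with the nearest start for 5 of the 15 regions, 1 for Nfia and 4 for Nfib, and 16.7% of all genes were nearest to at least 1 region. For the other 10 regions the nearest start was that of another gene, and for 7 of them it was within 2000 bp. The peak lists do not show which gene a distal region acts on.

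Nfia had a single region in all 3 replicates, in its intron 2. It spanned chr4:97506869-97507191, 39.8 kb from the nearest Nfia start, with scores of 99.0, 83.3 and 122 in replicates 1, 2 and 3. These were at percentiles 62.2, 51.0 and 86.7 of the full lists. Among the peaks of regions in all 3 replicates they were at percentiles 24.2, 33.9 and 26.1, below the middle in each list. Its common stretch, printed above, holds 1 SOX core word, ACAAAG, and the full region holds another, ACAAAA preceded by G. The other 8 Nfia regions were each in 1 or 2 lists. A peak of replicate 1 alone, 131 kb from the start of Tm2d1 and downstream of Nfia, scored 114, at percentile 68.2, above the intron 2 peak of that list. Of the 2 regions seen in replicates 2 and 3, the one with the higher score was 182 kb upstream, in an intron of E130114P18Rik, with scores of 52.6 and 109. A peak of replicate 3 alone, with a score of 50.2 at percentile 0.844, was the only peak within 2000 bp of an Nfia start.

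Nfib had 5 regions in all 3 replicates, and its start was the nearest for 4 of them. The one with the best scores was not in the gene but 50.4 kb upstream of its 5′ end, in sequence without an annotated gene, at chr4:82401806-82402235. Its scores of 418, 188 and 352 were at percentiles 95.2, 84.2 and 97.0, the second-best lowest percentile of the 15 regions. Counted from the nearest of the other Nfib starts, it is 250 kb upstream. Its printed stretch holds 4 SOX core words, of which 3 are preceded by A and 1 by G, more than any of the other 14 regions.

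Inside Nfib, 2 regions lay in intron 2, 29.0 kb apart. The first, chr4:82047415-82047752, scored 164, 158 and 265, at percentiles 80.3, 79.9 and 95.6. All 3 SOX core words in it are preceded by G. The other, chr4:82076750-82077008, scored 65.6, 60.6 and 120, at percentiles 38.7, 27.2 and 86.2. Among the peaks of regions in all 3 replicates it stood at percentiles 10.6, 13.7 and 25.2, low in each list. It was the only 1 of the 15 regions with a POU octamer, on the reverse strand (ATGCTAAT), between the SOX words of the printed stretch.

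The remaining intronic region, chr4:82268120-82268565, is intronic only in the longest Nfib transcript and lies 117 kb upstream of the other starts. Its scores of 168, 84.6 and 145 were at percentiles 81.1, 52.1 and 89.7. The fifth region, chr4:82532096-82532389, was 181 kb upstream of Nfib and 1191 bp from the start of Cer1, which encodes a secreted inhibitor of Nodal and BMP signalling. It scored 93.1, 115 and 287, at percentiles 59.6, 67.9 and 96.1. A separate region of replicates 1 and 3, 178 bp away, scored 71.8 and 87.6, and it was the only Nfib region in exactly 2 lists. At the starts of Nfib itself there was 1 peak, in replicate 1 only, with a score of 60.7.

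Nfic, the shortest of the genes, had 2 regions in all 3 replicates, both downstream of it and both at the start of another gene. The region at chr10:80811890-80812419 was in an untranslated exon of Hmg20b, a subunit of a histone-modifying corepressor complex, 325 bp from its start. It scored 407, 150 and 177, at percentiles 94.9, 78.1 and 92.2. The region at chr10:80841155-80841694 was 164 bp from the start of Fzr1, an activator of the anaphase-promoting complex, and scored 69.5, 54.5 and 101, at percentiles 43.3, 14.1 and 81.4. Among the peaks of regions in all 3 replicates, the Fzr1 region stood at percentiles 12.4, 6.4 and 16.6, low in each list. A region of replicates 1 and 3 in an intron of Tjp3, with scores of 214 and 108, was the only Nfic region in 2 lists. No peak of any list lay in the body of Nfic or within 2000 bp of its starts.

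Nfix had 7 regions in all 3 replicates, 4 upstream and 3 downstream, in a stretch of chromosome 8 with many other genes. The strongest of the whole family, chr8:87503632-87504138, was 180 kb upstream of Nfix and 1269 bp from the start of Junb, which encodes a subunit of the AP-1 transcription factor. Its scores were 969, 634 and 1132, rank 175 of 18816, rank 135 of 8096 and rank 155 of 40543, and it was the only 1 of the 15 regions in the top 10% of each list. It holds 1 SOX core word, ACAATG on the reverse strand, at the first base of the printed stretch.

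Closer to Nfix on the same side, the region chr8:87380695-87381056 was 12 bp from the start of Farsa, a subunit of phenylalanine tRNA synthetase, and scored 68.1, 56.6 and 115. The region chr8:87468370-87468707 was 2351 bp from the start of Rtbdn, a riboflavin-binding protein, and scored 127, 50.1 and 91.8. The last was at percentile 0.124 in replicate 2, barely above the threshold of that list. In replicates 1 and 3 it was at percentiles 72.2 and 77.6.

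The 3 downstream regions were all nearest to Ier2, an immediate early gene. They were part of a group of 5 regions in 2 or 3 lists within 9.6 kb. The region chr8:87179551-87179888 scored 250, 136 and 138 and the region chr8:87183972-87184482 scored 343, 104 and 191, at 7031 and 2524 bp from the Ier2 start. Both were above percentile 60 in each list. The region chr8:87187842-87188228 scored 61.7, 58.4 and 126, and its peaks had only 8 bp in common. Beside these, 6 Nfix regions were in 2 lists, and the highest score among them, 206 in replicate 3 with 139 in replicate 2, belonged to another of the Ier2 group, chr8:87178634-87178926.

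Within the body of Nfix there were 5 regions in introns, none in all 3 replicates, and 2 regions at annotated starts. One of the 2, 553 bp from a start, had peaks in replicates 2 and 3 with scores of 51 and 68.6, and it was the only region at a start of any member with peaks in more than 1 list. The other was in replicate 3 only, with a score of 58.1.

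**Figure D2:**
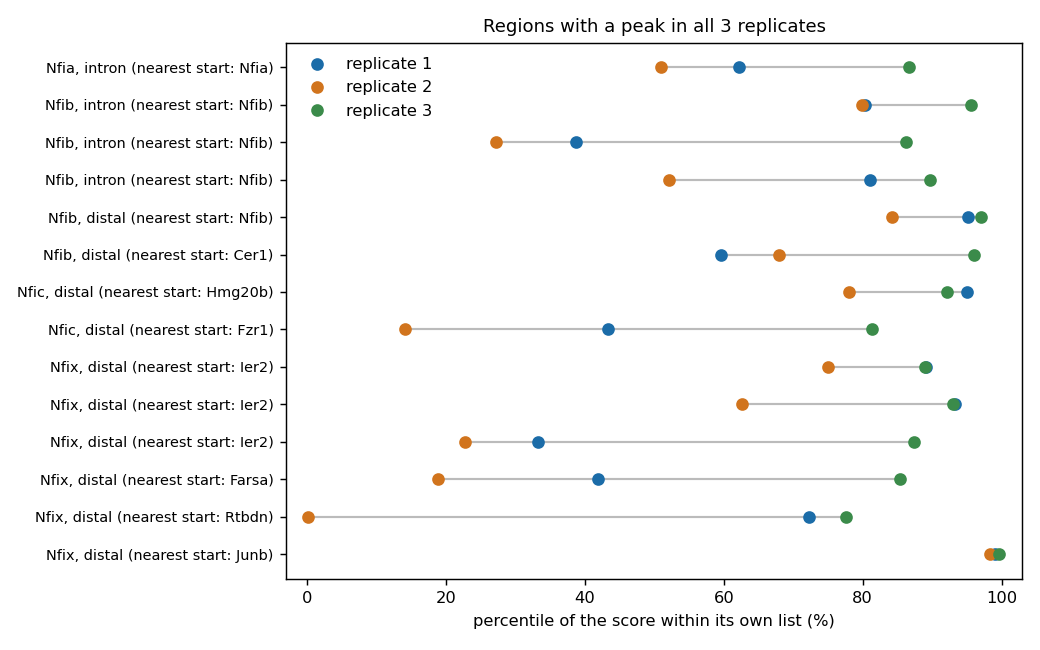
Percentile of the score of 14 of the 15 regions in all 3 replicates. Each row is a region, named by the NFI gene and the nearest transcript start, the horizontal axis is the percentile within the list of each replicate (%), and grey lines join the lowest and the highest. The Junb region is above percentile 98 in each list, and the spread along a row also reflects the unequal lengths of the lists, since the medians of all replicated peaks are 81.8, 64.6 and 92.6.

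Across the 15 regions, the median percentile was 72.2 in replicate 1, 52.1 in replicate 2 and 89.7 in replicate 3. All replicated peaks of the data set had medians in the same order, 81.8, 64.6 and 92.6, each higher than that of the 15 regions. Percentiles therefore do not compare 1 replicate with another, since replicate 3 held many more peaks seen in no other list. Among the peaks of regions in all 3 replicates, the medians of the 15 were 34.7, 35.1 and 35.7, below the middle in each list. In 9 of the 15 regions each of the 3 peaks was in the upper 50% of its list, a share that was not counted for all replicated regions. These 9 included the Nfia region, 4 of the 5 near Nfib, 1 of the 2 near Nfic and 3 of the 7 near Nfix. The regions were 259 to 540 bp wide, with a median of 387 bp, beside 401 bp for all 5358 regions in all 3 replicates. In none of the 15 did any 50-base sequence occur elsewhere in the genome, whereas 5 of the 90 regions near the family were mostly multi-copy, with more than 50% of their 50-base sequences found in more than 1 place.

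Against all 22367 protein-coding genes, the windows of Nfix and Nfib held more regions than those of most genes and that of Nfia did not. The number of regions in all 3 replicates was 7 in the Nfix window, more than in the windows of 98.4% of genes, and 5 in the Nfib window, more than 95.2%. With the 8096 best peaks of each list, Nfix had 4 and Nfib 4, and at a p-value of 1e-10 or less Nfix had 3 and Nfib 2. With flanks of 50 kb in place of 200 kb, Nfix had 4 and Nfib 3. Other genes were not ranked at these settings, so the comparison with most genes holds for the full lists and flanks of 200 kb only. In the full lists the number was 2 for Nfic, more than 68.5%, and 1 for Nfia, which is the median over genes and more than 39.4%. All 4 members had at least 1, as did 60.6% of genes, but at a p-value of 1e-10 or less, where other genes were not counted, Nfia had 0. Longer genes have longer windows, so the number was also divided by the window. Nfix then had 1.40 regions per 100 kb (exact Poisson 95% interval 0.562 to 2.88), Nfib 0.613 (0.199 to 1.43), Nfic 0.460 (0.0557 to 1.66) and Nfia 0.121 (0.00305 to 0.672), beside a median of 0.233 over genes. The interval of Nfix lay above this median and those of the other 3 members included it. The intervals of the 4 members overlapped each other, with counting error alone considered. By regions per 100 kb, Nfix stood above 97.7% of genes, Nfib above 84.9%, Nfic above 73.8% and Nfia above 39.7%.

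**Figure D3:**
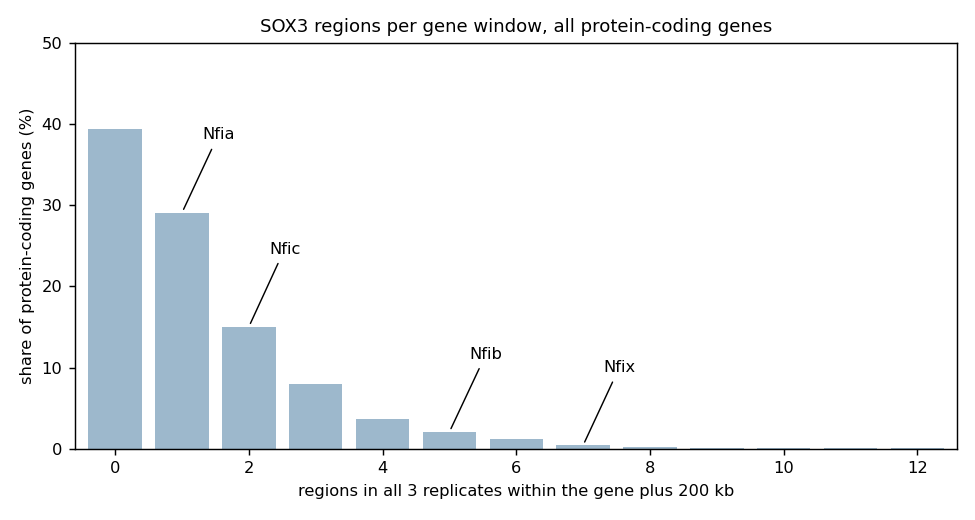
Number of regions in all 3 replicates within the gene plus 200 kb (horizontal axis) against the share of the 22367 protein-coding genes with that number (%, vertical axis). Nfia is at 1, Nfic at 2, Nfib at 5 and Nfix at 7, and genes with more than 12 regions (0.644%) are not drawn.

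SOX words were common in the regions near the family, at shares whose intervals included those of replicated regions in general. The SOX core word was present in 12 of the 15 regions (80%, 95% Wilson interval 54.8 to 93.0%), beside 82.6% of the 5356 regions in all 3 replicates without unknown bases. In flanking windows, equally wide and placed 2000 bp upstream and downstream, it was present in 18 of 30 (60%, 42.3 to 75.4%), and the intervals of regions and flanks overlapped at this width. With windows of 200 bp, placed on the middle of each region and at 2000 bp from it, the core word was in 11 of 15 regions (73.3%, 48.0 to 89.1%) and 8 of 30 flanks (26.7%, 14.2 to 44.4%), and the intervals did not overlap. All replicated regions were not counted at this width, so the separation cannot be called particular to the family. It was present in 5 of the 5 regions whose nearest start was that of Nfia or Nfib and in 7 of the other 10. The 3 regions without it were those at Fzr1 and Farsa and the Ier2 region whose peaks had 8 bp in common.

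The longer words were in fewer regions than the core word, with wide intervals that overlapped each other. The word with G before ACAAA or ACAAT was in 8 of 15 regions (53.3%, 30.1 to 75.2%), 9 of 30 flanks (30%, 16.7 to 47.9%) and 48.5% of all replicated regions, and in windows of 200 bp it was in 8 of 15 (53.3%, 30.1 to 75.2%) and 4 of 30 (13.3%, 5.31 to 29.7%), without overlap. The word with A in that place was in 6 of 15 (40%, 19.8 to 64.3%), 10 of 30 flanks (33.3%) and 62.8% of all replicated regions. In windows of 200 bp the word with A was in 4 of 15 (26.7%, 10.9 to 52.0%) and 4 of 30 (13.3%, 5.31 to 29.7%), with overlap. For neither word were all replicated regions counted in windows of 200 bp. Each of these 2 words shares 5 bases with the SOX core word when both match at one place, so the counts are not independent. The POU octamer was in 1 of 15 regions and 1 of 30 flanks, beside 11.6% of all replicated regions, and the joined SOX/POU word was in 0 of 15 and 1 of 30, beside 6.98%. With 15 regions, an upper limit of 20.4% for the joined word cannot show a difference from that share.

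The family's own binding word was also counted. The NFI palindrome, TTGGCNNNNNGCCAA, was in none of the 15 regions or 30 flanks and in 0.0747% of all replicated regions. Its single arm, TTGGC, was in 12 of 15 regions (80%, 54.8 to 93.0%), 19 of 30 flanks (63.3%, 45.5 to 78.1%) and 52% of all replicated regions, a share just below the interval of the 15. With only the central 200 bp of each of the 15 counted, the share was 53.3%, beside 43.3% of the flanks. This word is only 5 bases long and rich in G and C, and the 10 regions nearest to other genes had GC contents of 38.1 to 67.8%, beside 43.7 to 51.6% in the 5 nearest to Nfia or Nfib and a median of 48.9% in all replicated regions. The part of base composition in these shares was not tested.

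**Figure D4:**
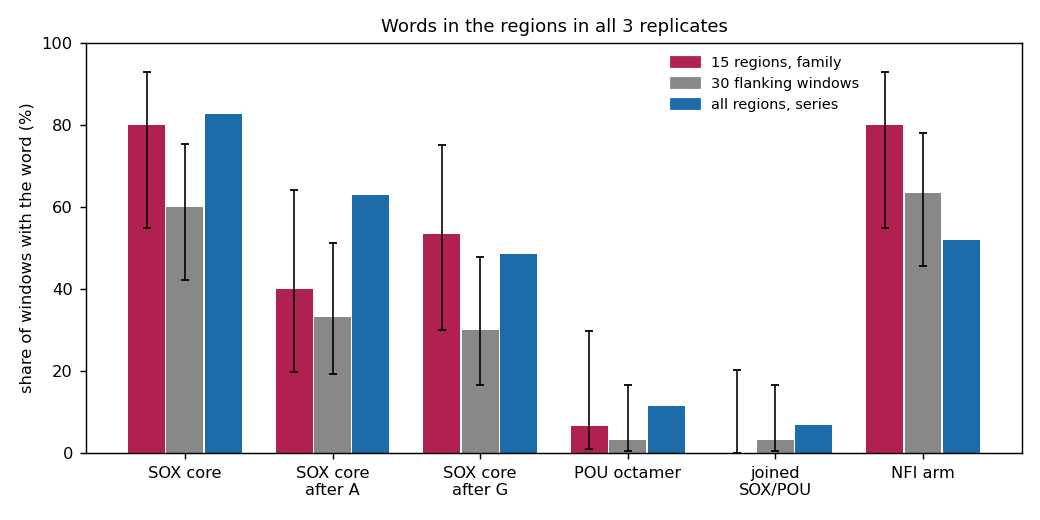
Share of windows with each word (%, vertical axis) in the 15 regions near the family, in their 30 flanking windows and in all 5356 regions in all 3 replicates without unknown bases; black bars are 95% Wilson intervals. The SOX core word is at 80%, 60% and 82.6%, and the intervals of regions and flanks overlap for each word drawn at these widths. They separate for the SOX core word and for the core after G when windows of 200 bp are used, a width at which all replicated regions were not counted.

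Genes that work with the NFI family in glial development were examined with the same windows. Of 24 genes with known roles in the onset of gliogenesis, 17 (70.8%) had a region in all 3 replicates within the gene plus 200 kb, beside 60.6% of all protein-coding genes. With flanks of 100 kb 15 of the 24 had a region, beside 42.2% of all genes, and with 50 kb 12 had, beside 28.8%. As nearest gene of at least 1 region there were 12, beside 16.7% of all genes. Within the gene body, 5 of the 24 had such a region, beside 8.83% of all genes, and within 2000 bp of a start 3 had, Hes5, Notch1 and Cntfr, beside 4.79%. Notch1, the receptor whose signalling precedes Nfia induction, had 5 regions, 2 of them in its body. Sox9, the SOXE factor upstream of Nfia, had 4 regions and was the nearest gene of 4. Olig1, Olig2, Hes1, Hes5 and Cntfr also had 4 each, and the windows of the neighbours Olig1 and Olig2 overlap. The 7 genes at 0 were Sox10, Pou3f2, Stat3, Nr2f1, Nr2f2, Bmpr1a and Smad4. Of these, Nr2f1 was still the nearest gene of 2 regions in all 3 replicates, which lay outside its window.

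Of 14 NFI target and glial genes, 11 (78.6%) had a region in all 3 replicates in their window, 1 in the gene body and 1 at a start, in both cases Cdh2, beside 8.83% and 4.79% of all genes. With flanks of 100 kb 7 of the 14 had a region, beside 42.2% of all genes, and with flanks of 50 kb 3 had, beside 28.8%. Ezh2, which encodes a histone methyltransferase, had 39, but each of these 39 was mostly multi-copy. Mmd2 and Hes1 had 4 each and Fabp7, the radial glia marker, had 3. Slc1a2, Aldh1l1 and Apcdd1 had 0. Gfap, the astrocyte intermediate filament, had 1 region in its window and none nearest to it. These shares stand beside the 60.6% of all genes as descriptions, since windows of neighbouring genes overlap.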

How the data were processed

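SOX3 ChIP-seq was analysed in 3 biological replicates of 1 condition. The authors aligned 50 bp reads to mm9 with Bowtie 1.0.0 and called peaks per replicate with MACS (version not given in the sources used here) against input DNA at a p-value threshold of 1e-05. As deposited, a score multiplies the negative log10 of MACS's p-value by 10 and is not normalized between replicates. Depth is unknown, and the input was not analysed here.

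Peaks overlapping by at least 1 bp across lists were merged. Genes (GENCODE vM1) and sequence came from NCBIM37, the same assembly as mm9, and no peak ended beyond its chromosome. Where a symbol had more than 1 entry (Zbtb20), the longest was used. The position of a region was that of its middle. Words were counted on both strands. Intervals are 95% and cover counting error only. The members and gene lists were chosen with earlier results of these data known, and no test was run. Of the regions in all 3 replicates, 14 were named and 1 is not reported here, and, per gene, the highest-scoring region in 2 lists was named. For each gene list, the genes with the most regions (up to 4, with ties) and those at 0 were named, with a few others named after their values were seen. The 3 further Nfib sequences and the values for genes of at least 300 kb were also chosen then. Alternatives changed the p-value, number of peaks, overlap, flank, promoter width, assignment and replicates. On simulated data, the procedure recovered 948 of 948 made regions in all 3 lists and 200 of 200 planted words. The made peaks overlapped by design at sites far apart, so this checks the code only, not its behaviour on the real lists. The joined SOX/POU word and the NFI palindrome were not among the planted words. Software was Python 3.11.15 with pysam 0.24.0, numba 0.67.0, numpy 2.4.6, matplotlib 3.10.9 and scipy 1.17.1.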

Additional observations from a re-analysis of the deposited data

How the results depend on the processing

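Of 173 alternative values, 114 stayed within 1.5 times the main count, or within its interval or spread, and 59 did not. The number of family regions in all 3 replicates was 15, and it was 6 at a p-value of 1e-10 or less (score of at least 100), 23 with flanks of 500 kb and 5 by nearest start, where Nfic and Nfix had 0. Leaving out 1 replicate and requiring the remaining pair gave 21 without replicate 1, 19 without replicate 2 and 15 without replicate 3. At 1e-10, Nfix had 3 in place of 7, Nfib 2 in place of 5, Nfic 1 in place of 2 and Nfia 0 in place of 1, with equal numbers of peaks Nfix had 4 and Nfic 1, and with flanks of 50 kb Nfix had 4 and Nfib 3. Without replicate 1, Nfix had 11 in place of 7 and Nfia 3 in place of 1. Regions in at least 2 replicates numbered 25, and 11 at 1e-10, 14 with flanks of 50 kb, 16 with 100 kb and 42 with 500 kb. At 1e-10, Nfia had 0 regions in 2 or more lists. With flanks of 50 kb, the peaks in replicates 1, 2 and 3 numbered 24, 13 and 34, with 100 kb those of replicate 3 numbered 44, and with 500 kb those of replicates 1 and 3 numbered 72 and 132. Of the NFI target and glial genes, 3 had a region with flanks of 50 kb and 7 with 100 kb, in place of 11. In windows of 200 bp, 53.3% of the 15 regions held the NFI arm, in place of 80%, and the flanks with it were 13 of 30 in place of 19. Flanks with the SOX core word were 8 of 30 in place of 18 and with the core after G 4 in place of 9, and for these 2 words the intervals of regions and flanks then no longer overlapped. In the gene body alone, the density of Nfic and Nfix was 0 per 100 kb. Ranked among peaks in regions of all 3 replicates, the median percentiles in replicates 1 and 3 were 34.7 and 35.7, in place of 72.2 and 89.7. The cause of these changes was not tested beyond the windows, peaks or ranks each alternative itself removes or adds. Positions (promoter, intron, distal) and the gliogenic list stayed within 1.5 times under each alternative run for them. No paired analysis was possible because the replicates form 1 group. With 3 replicates of unknown depth, a region missing from a list was not detected there at its threshold, which does not show absence of binding.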
